A study of Homo sapiens with 6 samples.

Results

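The genes described here encode the proteins that release calcium from the endoplasmic reticulum (ER), let it in across the plasma membrane and pump it back out, together with a regulator of the calcium-activated phosphatase calcineurin. They are the plasma membrane pumps ATP2B1 and ATP2B4, the ER pump ATP2A2, the IP3 receptors ITPR1, ITPR2 and ITPR3, the ER calcium sensor STIM1, the store-operated channels ORAI1 and ORAI3, and RCAN1. They were taken by gene symbol from the table of 16250 genes, and all 10 were found and passed the filter that left 12127 genes for the test. The cells were HK-2 cells, which derive from the proximal tubule of a human kidney and were immortalized, and all of them had been infected with a lentivirus that carries NK-1R behind a CMV promoter and selected with puromycin. Treated cells received 20 µM substance P (SP) for 48 h and control cells received PBS for 48 h, with 3 libraries each. Cells without the receptor vector were not analysed here.

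NK-1R, encoded by TACR1, is a G protein-coupled receptor that acts through Gq and phospholipase C-β. The enzyme splits a membrane lipid to make IP3, which opens the IP3 receptors of the ER, so that stored calcium flows into the cytosol. STIM1 senses the emptied store and opens ORAI channels in the plasma membrane. The pumps then end the signal, ATP2A2 (SERCA2) by refilling the ER and the ATP2B proteins (PMCAs) by moving calcium out of the cell. Sustained calcium activates calcineurin, which dephosphorylates NFAT transcription factors, and RCAN1 binds and restrains calcineurin.

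Values are FPKM, in which the fragments of a gene are divided by its length and by the size of its library, so levels of different genes can be set side by side per length. The depth of the libraries is unknown, since the tables give no counts. Tests were run on log2(FPKM + 1) with limma over all genes tested, where low genes show less change than their FPKM does. Whether the libraries of a group came from separate cultures is not stated in the sources used here, so p-values measure the spread between libraries, which may be technical. Genes with an adjusted p under 0.05 are counted as having risen or fallen. The receptor transcript itself differed between the groups. TACR1 had 15.7, 25.8 and 33.0 FPKM in the control libraries and 78.5, 123 and 141 FPKM in the SP libraries (log2 fold change 2.17 ± 0.28 SE, adjusted p = 0.00207 from limma), so that SP and the level of receptor transcript cannot be told apart below. The value does not separate vector from endogenous transcript. On the first principal component the first SP library lay nearest to control (12.7, against 20.7 and 21.3 for the others). Of 16 tubule epithelial markers listed, 9 had at least 1 FPKM in every library, KRT8, KRT18 and PAX8 among them, while CDH1 and CUBN stayed below 0.1 FPKM. Leukocyte markers (5 listed) summed to 113 to 117 FPKM in control and 108 to 115 FPKM in SP libraries. Nearly all of this came from CD68, and CD14 had 1.45 to 4.09 FPKM, while PTPRC was at 0 to 0.01 FPKM. The summed FPKM of 9 fibroblast markers was 24.2 to 30.5 in control and 16.2 to 18.7 in SP libraries, nearly all of it from LUM and COL1A1, and COL1A2 was at 0 to 0.01 FPKM. That of 4 endothelial markers was 0.06 to 0.12 and 0.45 to 0.78, with PECAM1 at 0.02 to 0.05 FPKM in control and 0.22 to 0.61 FPKM in SP libraries. For 5 neuronal markers it was 55.1 to 83.1 and 67.6 to 74.2, nearly all from TUBB3 and SNAP25. SNAP25 had 7.58 to 8.34 FPKM in control and 11.95 to 16.16 FPKM in SP libraries. The part of these in the results below was not tested. Fewer cells of a type and less RNA per cell cannot be told apart in bulk RNA.

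SP-treated cells had more transcript of the pumps ATP2B1 and ATP2A2 and of the calcineurin regulator RCAN1. The ratio of mean FPKM was 2.05 for ATP2B1, 1.36 for ATP2A2 and 1.41 for RCAN1 (n = 3 libraries a group). ATP2B4, the IP3 receptors, STIM1 and the ORAI channels did not pass the test. Of the 10 genes, 3 rose and none fell by limma, and the counts at an unadjusted p under 0.05 were the same. Over all genes tested 8.57% rose and 12.0% fell. At an unadjusted p under 0.05 from limma, 1738 of all 12127 genes were higher and 2705 lower. The median log2 fold change was 0.17 for the 10 genes and -0.05 for all genes tested. In 5 of the 10 genes (ATP2B1, ATP2A2, ITPR2, STIM1 and RCAN1) all SP libraries exceeded all control libraries, as they did in 15.9% of all genes, and in none were they all lower, as in 26.1% of all genes. The split of calls over all genes depends on the scaling between libraries, with 1039 higher and 1457 lower as deposited, 1044 and 751 with equal FPKM totals, and 1283 and 912 with median-ratio scaling. The 3 calls were the same under each of these.

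**Figure D1:**
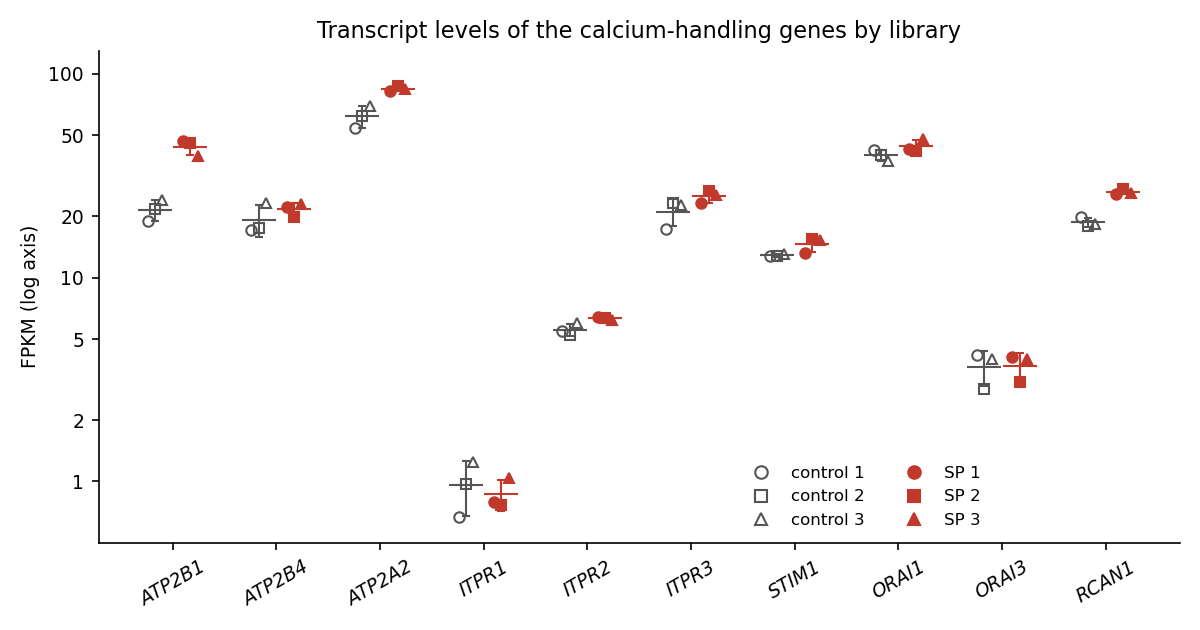
FPKM on a log axis of the 10 genes in each control library (open grey symbols) and each SP library (filled red symbols), with the replicate number given by the symbol, and the group mean and SD as a line and bars. The SP libraries lie apart from and above control for ATP2B1 (39.7 to 46.8 against 18.9 to 24.0 FPKM), while those of ORAI3 and ITPR1 lie among the control libraries.

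In control cells the ER pump ATP2A2 had the highest level (62.1 FPKM), followed by ORAI1 (40.0 FPKM). ATP2B1, ITPR3, ATP2B4 and RCAN1 came next with means of 18.7 to 21.5 FPKM, and their libraries overlapped, so that these neighbours did not differ beyond their spread. STIM1 (12.9 FPKM), ITPR2 (5.55 FPKM), ORAI3 (3.66 FPKM) and ITPR1 (0.963 FPKM) followed, each apart from the next. With SP, RCAN1 (26.4 FPKM) came before ITPR3 (25.1 FPKM) with overlapping libraries, and the mean of ATP2B1 (44.0 FPKM) lay beside that of ORAI1 (44.2 FPKM), where the libraries also overlapped.

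ATP2B1 encodes the plasma membrane calcium pump found in most cell types. The gene spans bases 89588049 to 89709300 of chromosome 12 (minus strand, GRCh38, GENCODE 29, as for the positions below), with 21 exons and 3660 coding bases in the principal transcript. The control libraries had 18.9, 21.7 and 24.0 FPKM and the SP libraries 46.8, 45.7 and 39.7 FPKM. The groups did not overlap, and the lowest SP library was well above the highest control library. The means were 21.5 ± 2.55 FPKM (SD, n = 3) and 44.0 ± 3.82 FPKM (SD, n = 3), a ratio of 2.05. The log2 fold change was 1.0 (standard error 0.10, 95% confidence interval 0.77 to 1.23, adjusted p = 0.00081 from limma). ATP2B1 was the only one of the 10 genes that also reached a log2 fold change of 1, as 1.29% of all genes tested did upward. It lay close to that line, at 0.92 to 1.08 under the 14 alternative settings, and was called in all 14 (adjusted p 0.000505 to 0.00616). Antisense and long noncoding genes, AC025034.1 and ATP2B1-AS1, overlap it on the other strand, and reads cannot be told apart where strand handling is not given. The same holds for antisense genes that overlap ITPR1, ITPR2 and STIM1.

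ATP2B4, the other plasma membrane pump expressed here, lies on chromosome 1 from 203626561 to 203744081 (plus strand). It had 17.1, 17.6 and 23.2 FPKM in control and 22.3, 19.8 and 23.0 FPKM in SP libraries. The third control library was above all SP libraries. Its log2 fold change was 0.17 (95% confidence interval -0.09 to 0.44, adjusted p = 0.314 from limma). Without the third control library it was 0.31 (adjusted p = 0.0406 from limma), so 1 library decides this call, and without the first control library it was 0.10. ATP2B1 made up 52.6, 55.2 and 50.9% of the summed FPKM of both pumps in control libraries and 67.7, 69.7 and 63.3% in SP libraries. This share, which does not depend on the scaling between libraries, differed by 14.0 percentage points without overlap. The exact permutation test (two-sided) gave p = 0.1, the smallest that 3 against 3 allows, and an adjusted p = 0.5 over the 5 shares compared. Together the pair reached 40.8 ± 5.76 FPKM in control cells and 65.7 ± 3.22 FPKM with SP (SD, n = 3 each).

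ATP2A2 encodes SERCA2, which fills the ER store. Its span is 110280756 to 110351093 on chromosome 12 (plus strand), with 20 exons in its principal transcript. The control libraries had 54.5, 61.9 and 69.8 FPKM and the SP libraries 82.9, 87.0 and 83.9 FPKM. The groups did not overlap, and the spread was smaller with SP (62.1 ± 7.64 against 84.6 ± 2.15 FPKM, SD, n = 3 each). The log2 fold change was 0.45 (standard error 0.09, 95% confidence interval 0.24 to 0.65, adjusted p = 0.0114 from limma). Without the second SP library the adjusted p was 0.0541 at a log2 fold change of 0.43, and in the other 13 settings the gene was called. The other SERCA genes, named after their values were seen, were low, ATP2A1 at 0.14 to 0.24 FPKM and ATP2A3 at 0.01 to 0.06 FPKM, and were not tested.

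RCAN1 binds calcineurin and is itself a known target of NFAT. It lies on the minus strand of chromosome 21 from 34513142 to 34615142, and 10 of its 14 annotated transcripts are coding. It had 19.9, 17.9 and 18.4 FPKM in control and 25.8, 27.4 and 26.2 FPKM in SP libraries. The groups lay apart with little spread, at 18.7 ± 0.998 and 26.4 ± 0.811 FPKM (SD, n = 3 each). The log2 fold change was 0.48 (standard error 0.07, 95% confidence interval 0.32 to 0.63, adjusted p = 0.00323 from limma), and the call stood in all 14 settings (adjusted p 0.00241 to 0.0236). The value sums all transcripts of the gene, so it does not say which start was used.

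Promoters of the genes that rose are shown because these genes differed between the groups. Of the RCAN1 starts, the outermost is shown, and the internal one that alone held matches to the motifs searched. The RefSeq table (GRCh38.p14) held 18 starts for 8 of the 10 genes and none for ITPR2 and ORAI1, and RCAN1 had 6 starts. Motifs were searched in the 250 bases before each start. Each sequence below is taken from such a window, 5′ to 3′ on the strand of the gene, without bases that GENCODE 29 places in a UTR of another transcript. Capitals mark matches to the motifs searched on both strands, namely the cAMP response element TGACGTCA, the AP-1 site TGACTCA or TGAGTCA, the NFAT core GGAAAA, the E-box CACGTG and the ER stress element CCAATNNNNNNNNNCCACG. The stretch shown first lies before the outermost start of RCAN1 (chr21:34615143-34615363), and the next one 250 to 142 bases before an internal start (chr21:34526964-34527072). Those of ATP2B1 (chr12:89709367-89709616) and ATP2A2 (chr12:110280366-110280615) are whole windows and hold no match. Their GC content was 75.2% and 54.8%. A second window of each gene, not shown, held no match either, with a GC content of 80.8% and 80.4%. Only exact matches were counted.
RCAN1 outermost start: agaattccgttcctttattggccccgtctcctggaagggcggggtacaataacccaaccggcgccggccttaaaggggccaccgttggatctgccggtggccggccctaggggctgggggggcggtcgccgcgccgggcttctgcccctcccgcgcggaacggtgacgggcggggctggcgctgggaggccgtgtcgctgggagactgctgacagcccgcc
RCAN1 internal start: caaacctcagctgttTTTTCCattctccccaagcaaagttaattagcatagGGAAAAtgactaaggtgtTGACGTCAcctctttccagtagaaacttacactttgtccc
ATP2B1 outermost start: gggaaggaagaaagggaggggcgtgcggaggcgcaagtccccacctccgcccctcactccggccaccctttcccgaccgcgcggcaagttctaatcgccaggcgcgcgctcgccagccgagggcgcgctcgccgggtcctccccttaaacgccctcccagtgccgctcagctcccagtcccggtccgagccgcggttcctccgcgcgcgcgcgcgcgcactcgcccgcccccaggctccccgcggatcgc
ATP2A2 outermost start: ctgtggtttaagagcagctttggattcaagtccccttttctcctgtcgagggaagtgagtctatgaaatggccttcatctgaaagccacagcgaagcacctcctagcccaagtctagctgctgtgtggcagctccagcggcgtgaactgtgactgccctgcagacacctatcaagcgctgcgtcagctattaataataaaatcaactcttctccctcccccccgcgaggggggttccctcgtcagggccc

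The whole internal RCAN1 window held 1 cAMP response element, 181 to 174 bases before the start, 1 AP-1 site, 116 to 110 bases before it and outside the stretch shown, and 3 NFAT cores, of which 1, at 65 to 60 bases, is also outside it. Its GC content was 46.8%, against 72.0% in the outermost window, which held none of the motifs. Over all 35116 windows in the table, 1.65% held the cAMP response element, 4.2% the AP-1 site, 21.2% the NFAT core, 6.34% the E-box and 0.074% the ER stress element. Among the other windows of the 10 genes, 1 of ATP2B4 and 1 of STIM1 held an NFAT core. A match is a description of letters and not a site shown to be bound.

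IP3 receptors are the channels through which Gq-coupled receptors release stored calcium, and the 3 subtypes differ in their sensitivity to IP3. ITPR3 was the main subtype in these cells. It lies on chromosome 6 from 33620365 to 33696574 (plus strand). It had 17.4, 23.2 and 22.6 FPKM in control and 23.1, 26.5 and 25.6 FPKM in SP libraries. The groups overlapped between the second control and the first SP library, and the first control library was the lowest. The log2 fold change was 0.25 (95% confidence interval -0.01 to 0.51, adjusted p = 0.146 from limma), and 0.12 without the first control library. UQCC2, a protein-coding gene that overlaps ITPR3 on the other strand, is named for its position. It fell from 55.6 ± 5.38 to 36.2 ± 1.32 FPKM (SD, n = 3 each, adjusted p = 0.00245 from limma), and shared reads were not tested. ITPR2, on chromosome 12 from 26336515 to 26833198 (minus strand), had 5.46, 5.22 and 5.98 FPKM in control and 6.38, 6.32 and 6.22 FPKM in SP libraries. These groups did not overlap, but the difference was small, with a log2 fold change of 0.16 (95% confidence interval -0.02 to 0.34, adjusted p = 0.186 from limma). ITPR1, on chromosome 3 from 4493345 to 4847840 (plus strand), was at 0.67, 0.97 and 1.25 FPKM in control and 0.79, 0.77 and 1.04 FPKM in SP libraries. The SP libraries lay within the control range (log2 fold change -0.07, 95% confidence interval -0.36 to 0.23, adjusted p = 0.743 from limma). With single libraries left out its log2 fold change was -0.18 to 0.04, above 0 without the third control library.

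The makeup of the receptor pool was alike in its order in all libraries. ITPR3 held 73.9, 79.0 and 75.8% of the summed FPKM in control and 76.3, 78.9 and 77.9% in SP libraries. ITPR2 held 17.7 to 23.2% and 18.8 to 21.1%, and ITPR1 held 2.85 to 4.19% and 2.29 to 3.17%. All 3 ranges overlapped between the groups. The differences in mean share were 1.5, -0.74 and -0.76 percentage points, with p = 0.5, 0.7 and 0.2 by the exact permutation test (two-sided; adjusted p = 0.7, 0.7 and 0.5). The differences of ITPR3 and ITPR2 were smaller than the SD of their control shares (2.55 and 2.76 percentage points). That of ITPR1 was larger than the SD of its share in control (0.68) and in SP libraries (0.44). All 3 differences moved with single libraries. That of ITPR3 was 0.344 without the first control, 2.86 without the second control and 0.9 without the second SP library. That of ITPR2 was 0.71 and -2.03 without the first and the second control library, and -1.47, -0.34 and -0.41 without the first, the second and the third SP library. That of ITPR1 was -0.39 without the third and -1.05 without the first control library, and stayed below 0 with any 1 library left out. Together the 3 receptors reached 27.6 ± 3.55 FPKM in control cells and 32.3 ± 1.73 FPKM with SP (SD, n = 3 each).

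**Figure D2:**
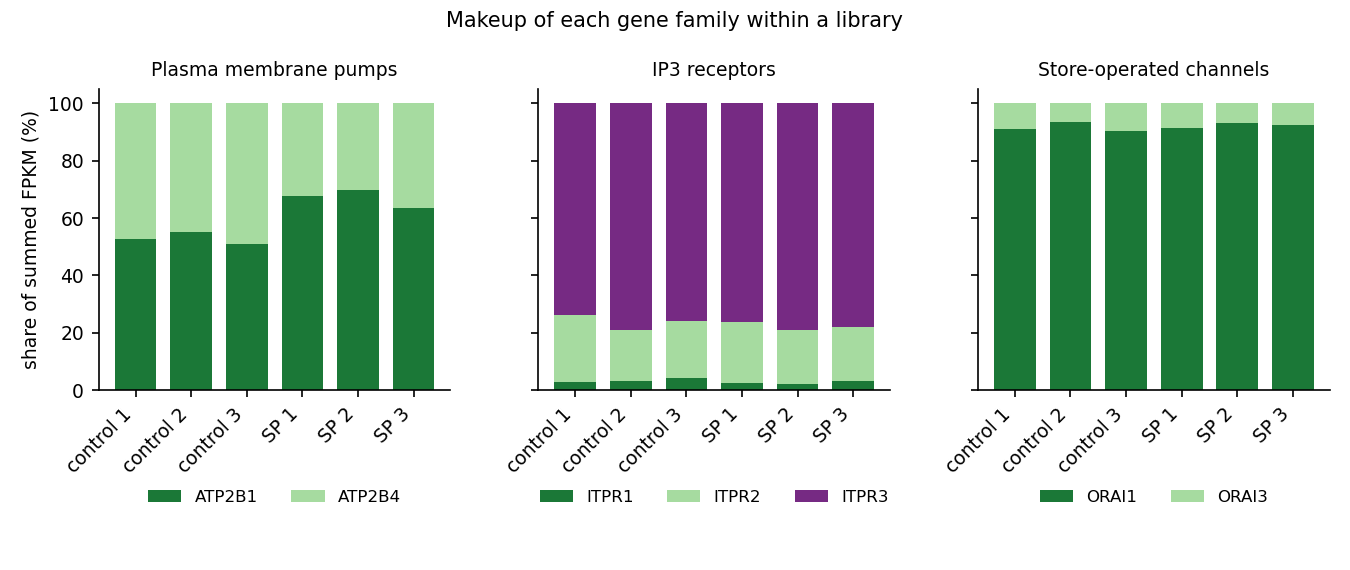
Share of summed FPKM in percent within each of the 6 libraries, with each gene as a colored part of a bar. Panels show the plasma membrane pumps, the IP3 receptors and, of the store-operated channels, ORAI1 and ORAI3 without ORAI2. The part of ATP2B1 is 50.9 to 55.2% in control and 63.3 to 69.7% in SP libraries, and the parts in the other panels overlap between the groups.

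STIM1 sits in the ER membrane and opens ORAI channels when the store is empty. It lies on chromosome 11 from 3854527 to 4093210 (plus strand). It had 12.8, 12.7 and 13.1 FPKM in control and 13.2, 15.5 and 15.4 FPKM in SP libraries. The first SP library was just above control and the other SP libraries were clearly higher. The log2 fold change was 0.18 (95% confidence interval -0.01 to 0.36, adjusted p = 0.149 from limma). ORAI1, the main pore-forming subunit of the channel, lies on chromosome 12 from 121626550 to 121642677 (plus strand). It had 42.5, 40.1 and 37.4 FPKM in control and 43.1, 41.7 and 48.0 FPKM in SP libraries. The groups overlapped, and the third SP library was the highest (log2 fold change 0.14, 95% confidence interval -0.04 to 0.32, adjusted p = 0.221 from limma). ORAI3, a paralog that can join ORAI1 in channels, lies on chromosome 16 from 30949066 to 30956461 (plus strand). It had 4.16, 2.84 and 3.97 FPKM in control and 4.06, 3.07 and 3.97 FPKM in SP libraries. The second library of each group was the lowest, and the groups covered the same range (log2 fold change 0.02, 95% confidence interval -0.30 to 0.33, adjusted p = 0.937 from limma). ORAI1 held 90.4 to 93.4% of the summed FPKM of ORAI1 and ORAI3 in control and 91.4 to 93.1% in SP libraries (exact permutation test, two-sided, p = 0.6, adjusted p = 0.7). The difference of 0.67 percentage points was 0.0631 to 1.55 with single libraries left out, lowest without the third and highest without the second control library. ORAI2, named after its values were seen, is not part of this share, which is therefore not one of all ORAI transcript. Its mean was above that of ORAI3, at 10.7 FPKM in control and 11.9 FPKM in SP libraries. None of the IP3 receptors, STIM1, ORAI1 and ORAI3 was called in any alternative setting. For ITPR3, ITPR2, STIM1 and ORAI1 the intervals leave room for increases of up to 0.32 to 0.51 on the log2 scale.

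**Figure D3:**
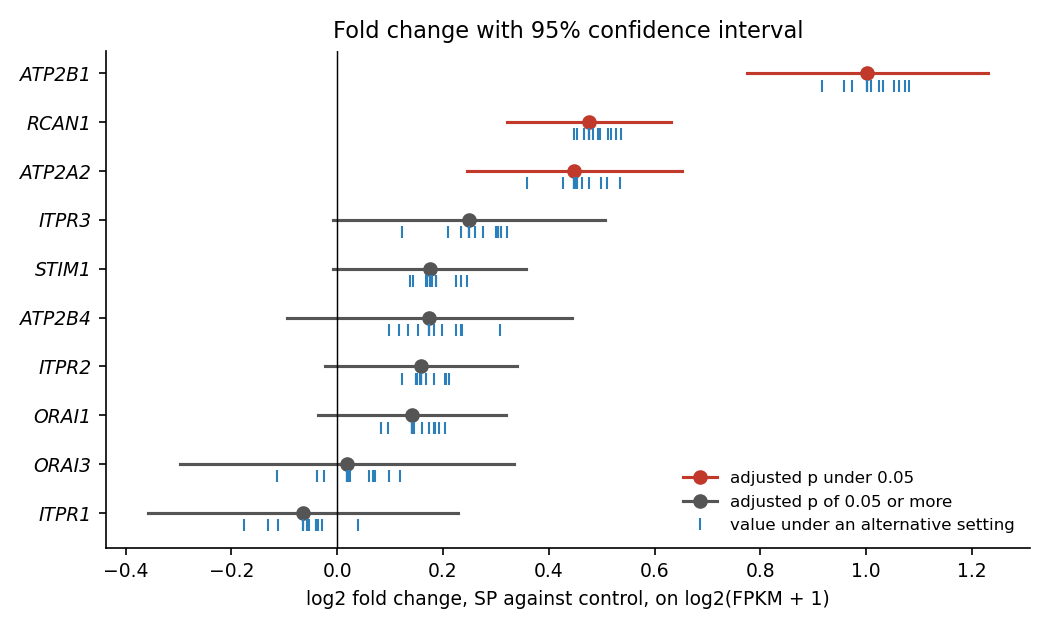
Log2 fold change of SP against control on log2(FPKM + 1) (horizontal axis) for the 10 genes, with the 95% confidence interval as a line, and the value under each alternative setting as a blue tick. ATP2B1, RCAN1 and ATP2A2 (red) lie to the right of 0 with their whole interval, and the intervals of the other 7 genes (grey) include 0.

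Lists of genes around these were written from general knowledge of calcium handling, with earlier results of these data known. They were read from the same fit. Over 104 genes tested in 10 lists, the 10 genes described above among them, 10 rose and 12 fell, with a median log2 fold change of 0.01. The shares were near those over all genes (8.57% and 12.0%). The split was 10 and 6 with equal FPKM totals and 12 and 9 with median-ratio scaling. It was 6 and 5 without the second control library and 4 and 5 without the second SP library. With the replicate number as a block it was 9 and 15, where PLCE1, SLN and SMDT1 were gained as lower and MCOLN1 was lost. At an unadjusted p under 0.05 from limma, 14 of the 104 genes were higher and 20 lower, against 1738 and 2705 of all 12127. The counts per list below are to be read beside these shares.

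The list of store release holds channels of the ER and lysosomes and their partners. In it 3 of 14 genes rose and 1 fell, with a median log2 fold change of -0.06. TPCN1, a two-pore channel of endosomes and lysosomes, had 46.0, 59.5 and 54.7 FPKM in control and 95.6, 120 and 124 FPKM in SP libraries. The groups lay far apart (log2 fold change 1.07, adjusted p = 0.00134 from limma), and TPCN1 was called in all 14 settings. ITPRIP, which encodes a protein that binds IP3 receptors, rose from 3.47 to 5.53 FPKM in the mean (log2 fold change 0.55, adjusted p = 0.0111 from limma, and 0.0558 without the second SP library). The lysosomal channel MCOLN1 rose by 0.31 and the ER and ciliary channel PKD2 fell by 0.28 on the log2 scale, but their calls stood in only 8 and 7 of 14 settings (adjusted p 0.0227 to 0.136 and 0.0258 to 0.157). With the replicate number as a block the adjusted p of MCOLN1 was 0.0572. Both were lost without any 1 of the second and the third control and SP libraries, and PKD2 also without the first SP library (adjusted p 0.0524 to 0.136). PKD2 had an adjusted p of 0.157 from limma with equal FPKM totals and 0.0578 with median-ratio scaling.

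In the list of store-operated entry 1 of 13 genes rose and 1 fell, with a median log2 fold change of 0.00. TRPC4, a cation channel, rose from 4.87 ± 0.351 to 7.04 ± 0.566 FPKM (SD, n = 3 each, log2 fold change 0.45, adjusted p = 0.0112 from limma). Its adjusted p was 0.051 without the second control library and 0.0573 without the second SP library. CRACR2B, a regulator of ORAI channels, had 4.37, 5.49 and 4.86 FPKM in control and 2.55, 3.07 and 2.83 FPKM in SP libraries, and was lower in all SP libraries (log2 fold change -0.63, adjusted p = 0.00534 from limma). Of the paralogs, chosen after their values were seen, ORAI2 had log2 fold change 0.15 (adjusted p = 0.158 from limma) and STIM2 -0.08 (adjusted p = 0.577 from limma).

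In the list of IP3 turnover 1 of 15 genes rose and none fell (3 and 2 at an unadjusted p under 0.05 from limma), with a median log2 fold change of 0.07. With the replicate block PLCE1, a phospholipase C, also fell (log2 fold change -0.66, adjusted p = 0.011 from limma, and 0.0583 without the block). INPP5A, the phosphatase that ends the IP3 signal by removing a phosphate, had 6.31, 5.81 and 5.81 FPKM in control and 9.96, 10.1 and 10.1 FPKM in SP libraries. The spread within each group was much smaller than the difference (log2 fold change 0.67 ± 0.07 SE, adjusted p = 0.00114 from limma), and the call stood in all 14 settings. Among pumps 2 of 4 genes rose and none fell (the same at an unadjusted p under 0.05 from limma). These were ATP2B1 and ATP2A2. ATP2C1, the calcium and manganese pump of the Golgi apparatus, had 34.1 ± 1.16 FPKM in control and 35.9 ± 1.94 in SP-treated cells (SD, n = 3 each, adjusted p = 0.471 from limma). Neither the 3 pump regulators nor the 2 exchangers tested were called by limma (at an unadjusted p under 0.05, 1 exchanger was lower). With the replicate number as a block, SLN, the inhibitor of SERCA pumps named sarcolipin, fell by 0.97 on the log2 scale (adjusted p = 0.00113 from limma, and 0.192 without the block). BSG and NPTN, which encode partners of the plasma membrane pumps, differed little, by 0.08 and 0.06 on the log2 scale, and limma gave adjusted p = 0.482 and 0.551. BSG had 0.17 with quantile normalization (adjusted p = 0.0324 from limma). The exchangers SLC8B1 and SLC24A1 had 0.13 and -0.25 (adjusted p = 0.501 and 0.109 from limma).

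Among ER proteins that bind calcium 2 of 12 rose and none fell (3 and none at an unadjusted p under 0.05 from limma), with a median log2 fold change of 0.10. NUCB2 rose by 0.34 and CALU by 0.23 on the log2 scale (adjusted p = 0.0188 and 0.0435 from limma). The call of NUCB2 was lost without the second control library or without the second or the third SP library (adjusted p 0.0547 to 0.069), and that of CALU stood in 7 of 14 settings and was lost without any 1 library other than the first SP library (adjusted p 0.0739 to 0.167). None of 11 genes of mitochondrial calcium uptake rose and 3 fell by limma (none and 4 at an unadjusted p under 0.05), with a median log2 fold change of 0.02. MCU, the pore of the uniporter, had 37.4, 40.3 and 42.9 FPKM in control and 29.8, 29.1 and 33.9 FPKM in SP libraries, lower in each (log2 fold change -0.37, adjusted p = 0.0174 from limma). Its adjusted p was 0.0612 without the second control and 0.0804 without the second SP library, and 0.0821 with equal FPKM totals. VDAC3, an outer membrane channel, fell by 0.23 on the log2 scale (adjusted p = 0.0273 from limma). Its call stood in 7 of 14 settings. It was lost with equal FPKM totals (adjusted p = 0.122 from limma) and with median-ratio scaling (adjusted p = 0.0783 from limma). It was also lost without the first or the second control library or the second or the third SP library (adjusted p 0.0556 to 0.114).

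On the calcineurin and NFAT list 1 of 16 genes rose, RCAN1, and 4 fell, with a median log2 fold change of -0.03. PPP3CA, a catalytic subunit of calcineurin, had 19.5, 17.7 and 20.5 FPKM in control and 13.1, 14.0 and 13.3 FPKM in SP libraries. It was lower in every SP library while RCAN1 was higher in each (log2 fold change -0.48 ± 0.08 SE, adjusted p = 0.00496 from limma), and called in all 14 settings. RCAN3, a relative of RCAN1, moved the other way, from 3.82 ± 0.509 to 2.42 ± 0.207 FPKM (SD, n = 3 each, log2 fold change -0.49, adjusted p = 0.0149 from limma). Its adjusted p was 0.0573 without the second control and 0.0643 without the second SP library. HOMER2, a scaffold that ties calcium channels and receptors together, fell by 0.43 on the log2 scale (adjusted p = 0.00735 from limma), called in all 14 settings. DYRK2, a kinase of NFAT, fell by 0.36 (adjusted p = 0.0289 from limma) and kept the call in 8 of 14 settings. It was lost without the second or the third library of either group and with equal FPKM totals (adjusted p 0.0578 to 0.135).

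Of 14 calmodulin and calmodulin kinase genes none rose and 3 fell by limma (none and 4 at an unadjusted p under 0.05). The median log2 fold change was -0.12, the lowest of the 10 lists, against -0.05 for all genes tested. Of all 12127 genes tested 8.57% rose and 12.0% fell, and 1738 were higher and 2705 lower at an unadjusted p under 0.05. CAMKK1, a kinase that activates other calmodulin kinases, had 5.64, 5.35 and 4.86 FPKM in control and 2.21, 2.20 and 1.77 FPKM in SP libraries. All SP libraries were under the lowest control library (log2 fold change -1.04, adjusted p = 0.000632 from limma). DAPK1, a death-associated kinase, fell by 0.74 (adjusted p = 0.0038 from limma), and both were called in all 14 settings. CALM3, a calmodulin gene, fell by 0.29 (adjusted p = 0.0138 from limma). The value became 0.058 without the second control library, 0.0744 without the second SP library and 0.0656 with equal FPKM totals.

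**Figure D4:**
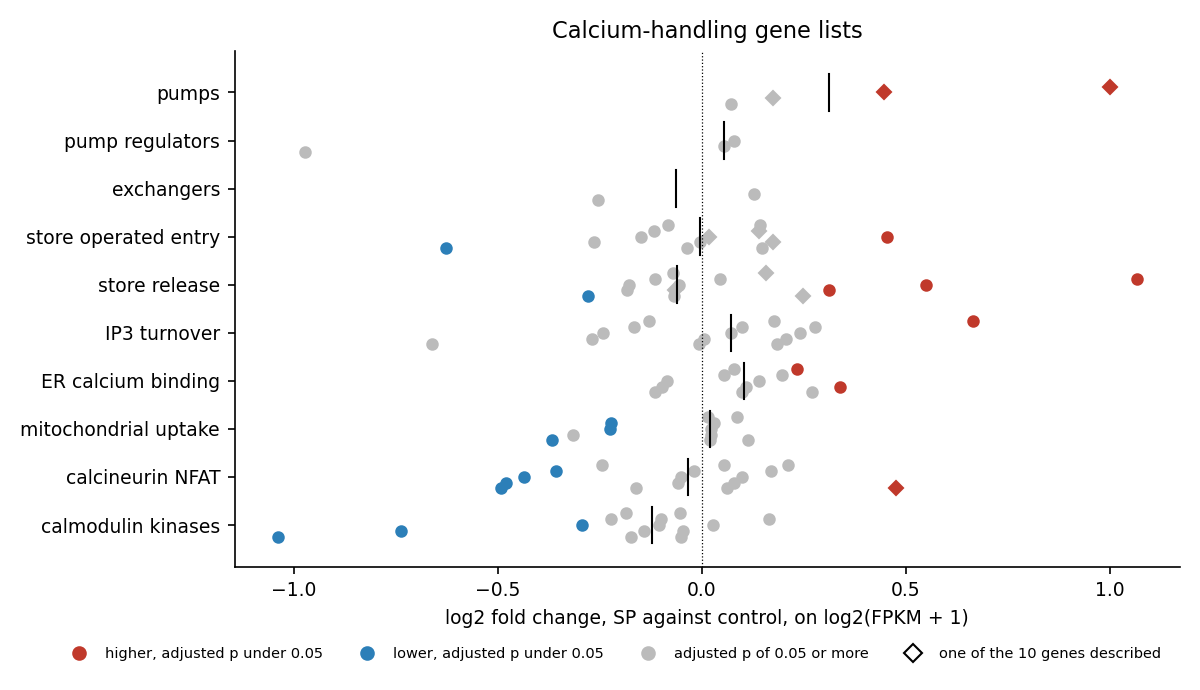
Log2 fold change of SP against control on log2(FPKM + 1) for each tested gene of the 10 calcium lists (1 row a list), with genes that rose in red, genes that fell in blue, others in grey, the 10 genes described in full as diamonds, and the list median as a black line. ATP2B1 (1.0) and TPCN1 (1.07) lie farthest to the right and CAMKK1 (-1.04) farthest to the left.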

How the data were processed

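RNA of 3 control and 3 SP libraries was sequenced on DNBSEQ as paired-end reads. After read cleaning, the authors aligned to GRCh38.p13 (HISAT) and estimated expression per gene (RSEM). They deposited FPKM rounded to 2 decimals for 16250 genes, without pooling. The submitters' processing notes also name HISAT2 and Bowtie2, with no version or role. Strand handling and the rule for listing genes are not given in the sources used here. A file per library held the same values as the whole table.

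From these values, genes with at least 0.5 FPKM in at least 3 libraries (12127) were put on the scale log2(FPKM + 1) and tested with limma 3.58.1 (R 4.3.3) using a variance trend and Benjamini-Hochberg adjustment over all of them. Shares within a library were compared by an exact permutation test. The genes and lists were chosen with earlier results of these data known. In each list the text names up to 4 called genes with the smallest p, or the 2 most abundant tested ones where none was called, and other named genes are marked as such. Some genes that this rule names are not reported here.

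Replicate numbers are shared between the groups in the labels, which do not say what a number stands for. Deviations from the group means correlated by 0.165, 0.223 and 0.17 between libraries of the same number. Between libraries of different numbers the values were -0.148 to -0.036. Deviations sum to 0 within a group, which ties these values together. The pairing rests on these correlations, and a fit with the replicate block was run beside the one without it. Other alternatives were a pseudocount of 0.1, no filter, a filter of 1 FPKM in all libraries, equal FPKM totals, median-ratio scaling, quantile normalization, no variance trend and each library left out. No count test was run, since no counts were given. Gene positions are from GENCODE 29 and promoter windows from RefSeq.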

Additional observations from a re-analysis of the deposited data

How the results depend on the processing

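The 3 calls among the 10 genes kept their direction in all 14 settings, and lost significance only for ATP2A2 without the second SP library. The number of the 10 genes called higher was 3 in 12 of the settings, 4 without the third control library and 2 without the second SP library, and the number called lower was 0 in all. With the replicate number as a block (paired fit) it was 3 and 0. Among the genes of the calcium lists it took the call from 1, MCOLN1, and gave it to 3, PLCE1, SLN and SMDT1, so that 9 rose and 15 fell. UQCC2, for which this fit was added after its values were seen, as for PLCE1 and SLN, kept its call (adjusted p = 0.0029 from limma), and no other call of a named gene changed. Over all genes, 193 were called at 2-fold or more as reported and 318 with a pseudocount of 0.1. The number called lower was 1457, and 751 with equal FPKM totals and 912 with median-ratio scaling. With single libraries left out, 900 to 2530 genes were called, 474 to 1117 of them higher and 426 to 1413 lower, and the total was 1190 without the second control, 900 without the second SP and 1486 without the third SP library. Over the calcium lists, 12 genes fell as reported and 6 with equal FPKM totals, and with single libraries left out 4 to 10 rose and 5 to 11 fell. The difference in the ITPR2 share was -2.03 to 0.71 percentage points with single libraries left out, turning only without the first control library. The causes were not tested. Depth is unknown, and 3 libraries a group limit what could be detected for differences of about the size seen in the IP3 receptors and STIM1.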

Other observations

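SLN, which encodes sarcolipin, an inhibitor of SERCA pumps, was named after its values were seen. It had 16.96, 28.99 and 60.77 FPKM in control and 7.68, 17.02 and 27.22 FPKM in SP libraries. In both groups the first library was the lowest and the third the highest. The groups overlapped, but SLN was lower with SP in each of the 3 pairs of libraries with the same number (log2 fold change -0.97). The adjusted p from limma was 0.192 without and 0.00113 with the replicate number as a block. PLCE1, a phospholipase C, was also named after its values were seen. It had 3.57 ± 1.54 FPKM in control and 1.81 ± 0.394 in SP-treated cells (SD, n = 3 each, log2 fold change -0.66, adjusted p = 0.0583 from limma without and 0.011 with the block). SMDT1, which encodes a subunit of the mitochondrial uniporter and was named for the same reason, had a value of -0.31 on the log2 scale (adjusted p = 0.072 from limma without and 0.0303 with the block).

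The genes whose log2(FPKM + 1) followed ATP2B1 most closely over the 6 libraries were WDR44, IL6ST and PANK3 (Pearson's r 0.999, 0.997 and 0.997). For RCAN1 they were NATD1, ACSL1 and JUP (r 0.996, 0.995 and 0.995). These values are descriptions over libraries that share the difference between SP and control.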
